A study of Homo sapiens with 4 samples.

Results

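Histones are the proteins that DNA is wound on, and their genes were followed here by RNA sequencing in HLE, a long-established line of human hepatocellular carcinoma cells. The genes were chosen by name: protein-coding genes whose symbol starts with H1-, H2AC, H2BC, H3C, H4C or HIST, together with H2AX, H2AZ1, H2AZ2, H2AJ, H3-3A, H3-3B, MACROH2A1 and MACROH2A2. Of the 20286 gene identifiers in the deposited count tables, 79 with such a name are described. Levels are CPM, counts scaled to the size of the library with TMM factors. A floor of 1 CPM on the mean over the 4 libraries kept 37 of these 79. The kept genes were 29 of 68 replication-linked genes and 8 of 11 variant genes.

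Cells that stably express CYR61, a CCN-family protein secreted into the matrix (current symbol CCN1), are called CYR61 cells here. Cells with the vector in place of it are called Vector cells. There were 2 libraries of total RNA per group. Per the series description, they came from independent cultures of the whole stable population, so p-values measure the spread between cultures. The sources used here do not say whether each stable population was made anew for each culture. Both groups grew in the same serum-containing medium with no further treatment. The library protocol names no poly(A) selection or ribosomal RNA removal.

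Chromatin is built from nucleosomes, in which DNA wraps around H2A, H2B, H3 and H4, with H1 binding the linker DNA between them. Replication-linked histone genes lie in clusters, mostly lack introns and are transcribed in S phase, when new DNA has to be packaged. Their messages are known to end in a short stem-loop bound by SLBP instead of a poly(A) tail, and they are lost when replication stops. Variant histone genes lie alone, mostly hold introns, give polyadenylated messages through the whole cell cycle and encode proteins that replace the canonical ones at particular places. Levels of stem-loop-ended messages depend on how libraries were made, and that dependence was not tested.

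The annotated transcript ends were searched for the stem-loop. It was defined as 16 bases that begin with GG and end with CC, have T and A closing the loop, and whose 6-base arms pair (G with T allowed), on the transcript strand within the first 100 bases after the stop codon of GENCODE 29 transcripts. It was found in 24 of the 25 kept replication-linked genes with an annotated end, and H2BC11 was the one without it. Among genes that are not members it was found in 31 of 18978, or 0.163%. The most frequent form stood in 15 kept genes, among them H2AC6 and HIST2H2AA3, and the form of H4C14 in 3. Of the 8 kept variants only H2AX held one. These 3 forms are printed because they are the ends of called genes and of the exception among the variants. Capitals mark the 2 arms and lower case the loop, 5′ to 3′.
H2AC6 (chromosome 6): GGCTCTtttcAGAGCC
H4C14 (chromosome 1): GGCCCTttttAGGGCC
H2AX (chromosome 11): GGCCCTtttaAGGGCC
The annotation also holds longer transcripts that run on past the stem-loop. They ran at least 100 bases past it in 19 of those 24 kept genes, for example 1114 bases in H2AC6 and 194 bases in H4C14. For HIST2H2AA3 the longest annotated transcript ran only 35 bases past it. In H2AX, which is known to make both a stem-loop and a polyadenylated message, the longest ran 1044 bases past it. Reads from the stem-loop and longer forms of a gene cannot be told apart in these counts per gene.

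The libraries held 16186988 to 21588822 estimated counts, with 14573 to 15068 genes detected in each. CYR61 itself stood at 8091 and 8620 CPM in CYR61 cells, against 221.5 and 218.3 CPM in Vector cells. Its log2 fold change was 5.25 (SE 0.13, adjusted p = 1.329e-08, edgeR's quasi-likelihood test with Benjamini-Hochberg adjustment over all genes tested), so the libraries matched their labels. The hepatocyte markers ALB, APOB and TTR were at 0 in the 4 libraries, and APOA1 did not exceed 0.106 CPM, although the label is hepatocellular carcinoma. The other 2 hepatocyte markers, SERPINA1 and HNF4A, averaged 0.936 and 3.69 CPM in CYR61 cells and 0.953 and 4.95 CPM in Vector cells. KRT8 and KRT18, keratins of simple epithelia, were high, at 3055 and 1374 CPM on average in CYR61 cells and 2388 and 1111 CPM in Vector cells. The other 2 epithelial markers were low, EPCAM at 0.840 CPM in CYR61 cells and 0.839 CPM in Vector cells and CDH1 at 2.18 CPM in CYR61 cells and 1.05 CPM in Vector cells. Of the mesenchymal markers, VIM averaged 1633 CPM in CYR61 cells and 1832 CPM in Vector cells, CDH2 57.2 CPM in CYR61 cells and 50.7 CPM in Vector cells, and FN1 28.6 CPM in CYR61 cells and 79.4 CPM in Vector cells. FN1 was called lower (log2 fold change -1.48, edgeR adjusted p = 0.000191). Of markers of other cell types, CD3E and KDR were at 0 and PTPRC, PECAM1 and COL1A2 reached at most 0.0531 CPM, while CD68 averaged 50.7 CPM in CYR61 cells and 64.9 CPM in Vector cells. CD68, a lysosomal protein, is not restricted to macrophages. COL1A1 lay between 22.9 and 31.0 CPM, PDGFRB between 11.0 and 14.8 CPM and CDH5 between 0.791 and 0.94 CPM over the 4 libraries. The part of other cells in the histone values was not tested.

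The summed level of the replication-linked genes was lower in CYR61 cells, and that of the 8 variant genes was not. Summed over the 29 replication-linked genes, the level was 182.8 and 199.5 CPM in CYR61 cells, against 276.3 and 260.7 CPM in Vector cells. Summed over the 8 variant genes it was 1737 and 1759 CPM in CYR61 cells, against 1663 and 1623 CPM in Vector cells. The groups did not overlap for either sum. Both CYR61 libraries were far below Vector for the first and slightly above Vector for the second. Replication-linked counts amounted to 10.9% ± 0.580 of variant counts in CYR61 cells and 16.3% ± 0.389 in Vector cells (SD, n = 2 each), a log2 difference of -0.58. With 2 libraries against 2 no exact permutation test can give a p under 0.333, so this ratio carries no test. The log2 difference was -0.60 over members of at least 5 CPM and -0.55 over members with at most 20% of their transcript 50-mers (runs of 50 bases) in another gene. Without the 3 replication-linked genes called below, chosen after their values were seen, it was -0.28, at 8.54% in CYR61 cells and 10.4% in Vector cells. Near-identical copies of called genes stayed in this sum. Of these, HIST2H2AA4 averaged 12.3 CPM in CYR61 cells and 8.44 CPM in Vector cells, and H4C15 3.10 and 5.10 CPM.

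**Figure D1:**
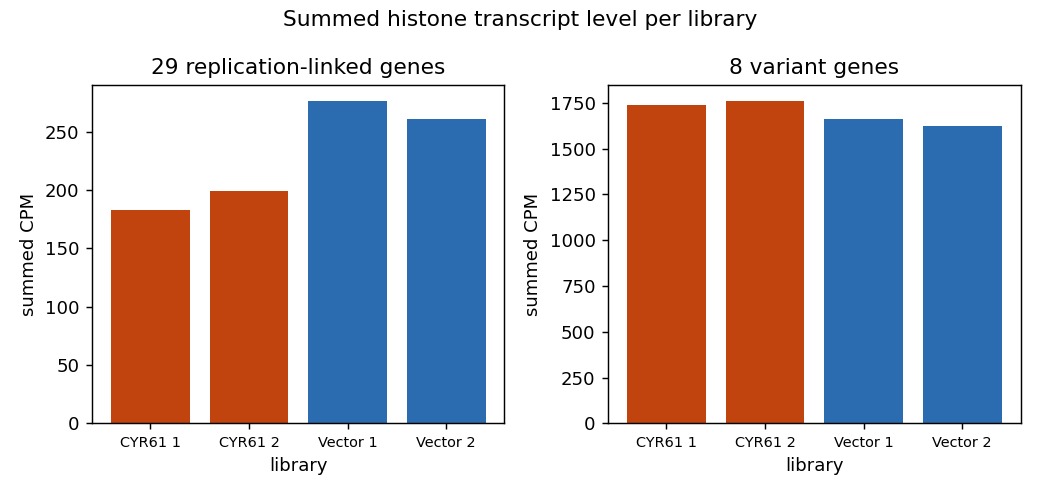
Summed level in CPM (vertical axes, from 0) of the 29 replication-linked genes (left) and the 8 variant genes (right) in each of the 4 libraries. The replication-linked sums were 182.8 and 199.5 CPM in CYR61 cells and 276.3 and 260.7 CPM in Vector cells, while the variant sums were 1737 and 1759 CPM in CYR61 cells and 1663 and 1623 CPM in Vector cells.

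In counts, the replication-linked genes took 3929 and 3185 counts in CYR61 cells, against 5205 and 5755 in Vector cells. These are 0.0184% and 0.0197% of all counts in CYR61 cells, against 0.0272% and 0.0267% in Vector cells. In bulk RNA, fewer cells in S phase and less histone RNA per cell cannot be told apart.

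A gene is called where its edgeR quasi-likelihood p, adjusted by Benjamini-Hochberg over all 12698 genes tested, is under 0.05. Called lower in CYR61 cells were 3 of the 29 replication-linked genes, HIST2H2AA3, H4C14 and H2AC6, against 4.56% of all genes tested. Called higher were 0 of the 29, against 1.83% of all genes tested. Of the 8 variant genes edgeR called 0, DESeq2 and limma-voom also 0, and 0 had an unadjusted edgeR p under 0.05. Of the 29 replication-linked genes, 10 had an unadjusted edgeR p under 0.05, 10 lower and 0 higher, beside 13.2% of all genes lower, 9.77% higher and 22.9% in either direction. In either direction 6.39% of all genes were called. Each share here rests on few genes. H3C14 and H3C15 are both among the 10 and had equal values in the files, so they are not separate measurements. HIST2H2AA3, also among the 10, depends on how reads were divided with HIST2H2AA4. H2BC17, another of the 10, passed the floor only through its Vector libraries, so its place there is no support for the direction. All 37 kept genes were tested. Of the 42 members under the floor, 8 had 0 counts in every library and 10 passed the count filter, of which 0 were called.

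**Figure D2:**
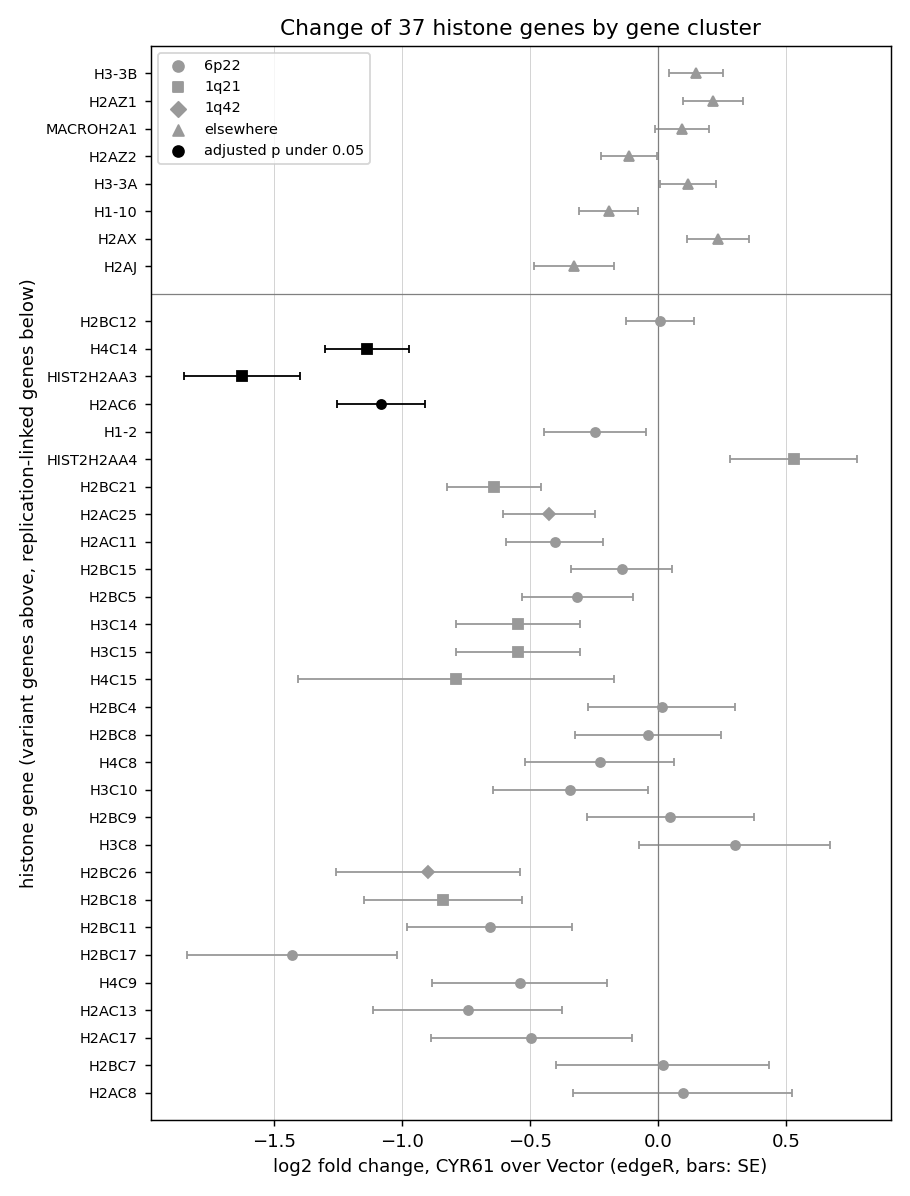
Log2 fold change, CYR61 over Vector, of the 37 kept genes (horizontal axis, edgeR estimate with its SE as bars), with marker shapes for the gene cluster and black for an adjusted p under 0.05. Called genes were HIST2H2AA3, H4C14 and H2AC6. Below 0 lay 22 of the 29 replication-linked genes, against 50.8% of all genes tested.

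The direction was shared more widely than the calls. The log2 fold change was below 0 for 22 of the 29 replication-linked genes, against 50.8% of all genes tested, with a median of -0.43 beside -0.01 over all genes. It ran from -1.62 for HIST2H2AA3 to 0.53 for HIST2H2AA4. Both CYR61 libraries lay below both Vector libraries for 19 of the 29 genes, against 27.7% of all genes. They lay above for 1 of the 29, HIST2H2AA4, against 23.9% of all genes, and the groups overlapped for 9. Among the 8 variants the median was 0.11, 3 genes had both CYR61 libraries below and 5 had both above. H2BC17, H2AC13 and H2AC17 averaged 0.879, 0.992 and 0.888 CPM in CYR61 cells, against 2.48, 1.63 and 1.27 CPM in Vector cells. Their means passed the floor only through the Vector libraries, so their place among the lower genes is no support for the direction. Some members share reads, so these counts are a description and not a test.

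By protein, the replication-linked H4 genes had the lowest median, -0.66 over 4 genes with 1 called lower. The 8 H2A genes followed with a median of -0.46 and 2 called lower, and the 4 H3 genes with -0.45 and 0 called. The 12 H2B genes had a median of -0.23 with 0 called. Over all genes tested 4.56% were called lower. The H4, H2A and H3 genes each include a near-identical pair, and H3C14 and H3C15 had equal values. The genes are thus not all separate measurements. H2AC13 and H2AC17 of the H2A genes and H2BC17 of the H2B genes passed the floor only through Vector libraries. The difference between proteins was not tested. H1-2, the only replication-linked H1 gene kept, had a log2 fold change of -0.25. Other linker genes of the class fell under the floor, with H1-4 just outside it at 0.951 CPM. H2AC15 lay next to it at 0.97 CPM, while H2BC7 and H2AC8 lay just inside at 1.06 CPM each.

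Of the kept genes, 19 lie in the large histone cluster of 6p22, 8 in that of 1q21 and 2 in that of 1q42, of 53, 11 and 2 genes there that fit the names. In the 1q21 genes the summed level was 58.9 and 68.5 CPM in CYR61 cells, against 123.4 and 108.5 CPM in Vector cells, with a median log2 fold change of -0.71 and 2 called lower. In the 6p22 genes it was 115.3 and 122.1 CPM in CYR61 cells, against 140.8 and 139.3 CPM in Vector cells, with a median of -0.25 and 1 called lower. In the 1q42 genes it was 8.65 and 8.90 CPM in CYR61 cells, against 12.1 and 12.9 CPM in Vector cells, with 0 called. Each sum was lower in both CYR61 libraries, and the gap was widest in 1q21. Over all genes tested 4.56% were called lower, and each count per cluster rests on few genes. Of the 2 called in 1q21, HIST2H2AA3 depends on how reads were divided with HIST2H2AA4. The difference between clusters was not tested, and 1q21 holds near-identical gene pairs that share reads.

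H2AC6 encodes a canonical H2A, lies on chromosome 6 at 26124145 to 26139116 on the plus strand (GRCh38, GENCODE 29) and shares only 0.421% of its transcript 50-mers with other genes. It had 10.2 and 9.71 CPM in CYR61 cells, against 22.9 and 19.4 CPM in Vector cells. Both CYR61 libraries were far below both Vector libraries. Its log2 fold change was -1.08 (SE 0.17, edgeR adjusted p = 0.00524), a fall of 2.12-fold resting on 155 to 432 counts per library. Of the 3 called replication-linked genes it shares the least sequence with other genes, and it was called under every alternative tried.

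Its promoter is printed because the proximal elements of histone genes are known, and because the gene facing it had a log2 fold change near 0. Motifs searched on both strands were CCAAT, bound by NF-Y, TATAA, the TATA box, ATTTGCAT, the octamer that POU2F1 binds in H2B promoters, GGTCCG, an element of H4 promoters, and AAACACA, an element of H1 promoters. The sequences are RefSeq promoters of GRCh38.p14, the 250 bases before the annotated start, 5′ to 3′ on the gene's strand, with motif matches on either strand in capitals. No 2 matches overlap in those shown.
H2AC6, chr6:26123922-26124171, plus strand: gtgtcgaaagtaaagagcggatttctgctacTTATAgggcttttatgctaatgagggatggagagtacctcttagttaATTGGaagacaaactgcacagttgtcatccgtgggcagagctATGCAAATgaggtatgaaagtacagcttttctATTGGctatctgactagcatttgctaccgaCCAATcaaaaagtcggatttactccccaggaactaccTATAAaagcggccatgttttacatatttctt
H4C14, chr1:149832407-149832656, plus strand: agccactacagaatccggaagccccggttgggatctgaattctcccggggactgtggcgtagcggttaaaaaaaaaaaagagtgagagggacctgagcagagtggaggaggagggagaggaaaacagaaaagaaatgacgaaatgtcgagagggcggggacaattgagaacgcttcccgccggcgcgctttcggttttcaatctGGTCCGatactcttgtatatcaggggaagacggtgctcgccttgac
H2AC18 (the current symbol of HIST2H2AA3), chr1:149842751-149843000, minus strand: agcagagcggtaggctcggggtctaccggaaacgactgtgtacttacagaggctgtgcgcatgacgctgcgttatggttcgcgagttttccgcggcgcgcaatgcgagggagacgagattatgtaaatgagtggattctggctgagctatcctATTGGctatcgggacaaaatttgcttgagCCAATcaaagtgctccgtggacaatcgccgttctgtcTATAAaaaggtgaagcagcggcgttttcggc
The H2AC6 window holds 3 matches to CCAAT, 2 to TATAA and 1 to the octamer, that of H2AC18 holds 2 to CCAAT and 1 to TATAA, and that of H4C14 holds 1 to GGTCCG. Among the kept replication-linked genes, CCAAT stood in 26 of 29 windows, against 33.0% of all 27305 promoters, and TATAA in 24 of 29, against 19.6%. The octamer stood in 9 of 12 H2B windows and 4 of 8 H2A windows, against 1.66% of all promoters. GGTCCG stood in 4 of 4 H4 windows, against 9.33%, and AAACACA in 1 of 29, H1-2, against 4.95%. Of the 8 variants with a promoter in the table, 6 held CCAAT, 4 TATAA and 1 the octamer. Divergent pairs with both genes kept start 219 to 314 bases apart, so their windows share bases and a match can count for both genes. The H2AC6 window reaches the annotated start of H2BC4, and which of the genes its matches serve was not tested. Each copy of a near-identical pair was also counted. A match is a run of letters and not a measured binding site.

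H2AC6 and H2BC4, an H2B gene, are transcribed away from each other with 219 bases between their starts. H2BC4 had 2.61 and 4.20 CPM in CYR61 cells, against 3.29 and 3.35 CPM in Vector cells, with a log2 fold change of 0.01. The level of H2AC6 over that of H2BC4 was 3.93 and 2.31 in CYR61 cells, against 6.97 and 5.78 in Vector cells. The CYR61 ratios lay below both Vector ratios, and the difference between the 2 genes' changes was not tested. Of 12 such divergent pairs within 1000 bases, 5 had both genes kept. In 3 of these 5 both genes were below 0 in log2 fold change: H2AC25 at -0.43 with H2BC26 at -0.90, H2AC17 at -0.49 with H2BC17 at -1.43, and H2BC11 at -0.66 with H2AC11 at -0.40. Of these, H2AC17 and H2BC17 passed the floor only through their Vector libraries. H2BC8, at -0.04, faces H2AC8, at 0.10, and neither gene of any of these pairs was called apart from H2AC6.

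H4C14 encodes histone H4 and lies on chromosome 1 at 149832659 to 149839767 on the plus strand, overlapping H3C14 on the other strand. It had 24.3 and 23.8 CPM in CYR61 cells, against 60.4 and 45.2 CPM in Vector cells. The CYR61 libraries nearly coincided and lay far below both Vector libraries. Its log2 fold change was -1.14 (SE 0.16, edgeR adjusted p = 0.00324). Its transcripts share 97.5% of their 50-mers with other genes, chiefly its copy H4C15, so the single gene is uncertain. With the counts of H4C14 and H4C15 summed before the fit, the level was 25.0 and 29.2 CPM in CYR61 cells, against 63.8 and 52.0 CPM in Vector cells. The log2 fold change of the sum was -1.10 (SE 0.15, edgeR adjusted p = 0.00268), and the sum was called with each library left out in turn. Strand use in the counting is not given, so reads from H4C14 and the antisense H3C14 cannot be told apart.

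HIST2H2AA3 encodes an H2A protein and lies on chromosome 1 at 149842188 to 149842736 on the minus strand, and HIST2H2AA4 is its near-identical copy. HIST2H2AA3 had 9.64 and 6.12 CPM in CYR61 cells, against 27.5 and 21.8 CPM in Vector cells. HIST2H2AA4 had 9.15 and 15.5 CPM in CYR61 cells, against 7.75 and 9.14 CPM in Vector cells. The first was lower and the second higher in both CYR61 libraries, the 2 extremes of the replication-linked class. The log2 fold change was -1.62 for the first, with an SE of 0.23 and an adjusted p of 0.00264, and 0.53 for the second, with an adjusted p of 0.234, both by edgeR. Of the reads of the pair, 51.3% and 28.3% were assigned to HIST2H2AA3 in CYR61 cells, against 78.0% and 70.4% in Vector cells. All transcript 50-mers of HIST2H2AA3 occur in another gene, so little sequence tells the copies apart and both single genes are uncertain.

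Summed, the pair had 18.8 and 21.6 CPM in CYR61 cells, against 35.2 and 30.9 CPM in Vector cells. Both CYR61 libraries lay below both Vector libraries. The log2 fold change of the sum was -0.71 (SE 0.16, edgeR adjusted p = 0.0249), which is the value that does not depend on the division. The sum was not called without CYR61 1 (adjusted p = 0.0822), without Vector 1 (adjusted p = 0.158) or with the replicate number as a block (adjusted p = 0.120), a setting that called 3.08% of all genes, all by edgeR. H3C14 and H3C15, which encode H3 and had equal values in the files, summed to 6.41 and 9.02 CPM in CYR61 cells, against 11.6 and 10.8 CPM in Vector cells. Their sum had a log2 fold change of -0.54 (edgeR adjusted p = 0.147), and without CYR61 2 it was called at -0.80 (edgeR adjusted p = 0.0235). With the 3 pairs summed, 4.58% of all genes were called lower.

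**Figure D3:**
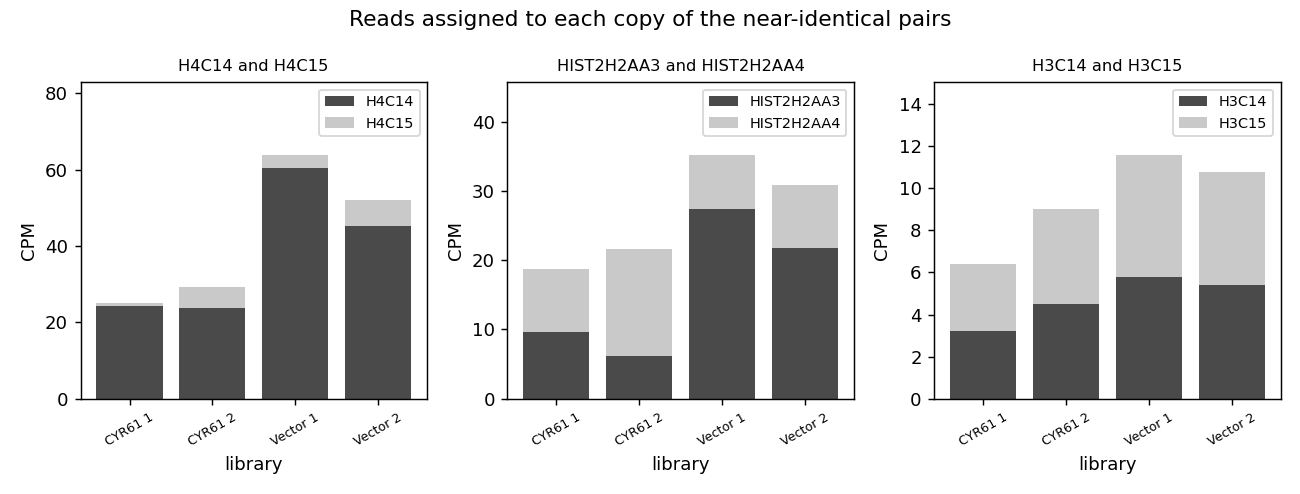
Level in CPM (vertical axes, from 0) of the 3 near-identical pairs of 1q21 in each library, with the part assigned to each copy stacked in dark and light grey. The pair of HIST2H2AA3 and HIST2H2AA4 was divided differently, with 51.3% and 28.3% of its reads on HIST2H2AA3 in CYR61 cells and 78.0% and 70.4% in Vector cells.

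H2BC21, H2BC17 and H2BC18, all H2B genes, had the smallest p-values among uncalled replication-linked genes. H2BC21 had 7.16 and 7.33 CPM in CYR61 cells, against 10.5 and 12.04 CPM in Vector cells, with a log2 fold change of -0.64 (edgeR adjusted p = 0.0675). H2BC17 had 1.26 and 0.501 CPM in CYR61 cells, against 2.60 and 2.36 CPM in Vector cells, with a log2 fold change of -1.43 (edgeR adjusted p = 0.0675). In each of these the CYR61 libraries were below both Vector libraries, but H2BC17 rested on 8 to 52 counts and passed the floor only through its Vector libraries. H2BC18 had a log2 fold change of -0.84 (edgeR adjusted p = 0.136) and 26.9% of its 50-mers in other genes. With a trend on transcript GC content removed from each library, H2BC21 and H2BC17 were called lower (edgeR adjusted p = 0.00726 and 0.0370) and HIST2H2AA4 was called higher (0.0297). With the replicate number as a block, H2BC17 was also called lower (log2 fold change -1.52, edgeR adjusted p = 0.0299). Removal of the GC trend called 30.4% of all genes, 12.2% lower and 18.1% higher.

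Per kb of annotated exon, H2BC12 led the replication-linked class. The annotated exon length differs widely between genes, 381 bases for H2BC12 and 1876 for H4C14, and the annotation behind the counts is not stated. Ranks per kb therefore depend on how much of each gene is annotated. H2BC12 averaged 147.5 CPM per kb over the 4 libraries, followed by HIST2H2AA3 at 29.6, H1-2 at 22.7, H4C14 at 20.5 and HIST2H2AA4 at 18.4. H2BC12, an H2B gene whose other name is HIST1H2BK, had 52.4 and 60.3 CPM in CYR61 cells, against 58.5 and 53.5 CPM in Vector cells. The groups overlapped, with a log2 fold change of 0.01 (edgeR adjusted p = 0.980) whose sign turned in some alternatives. H2BC12 was the largest single part of the class sum in each library but Vector 1, and 74.1% of its 50-mers occur in another gene. H1-2, a linker histone, had 14.1 and 12.5 CPM in CYR61 cells, against 13.0 and 18.6 CPM in Vector cells. Its groups overlapped too, with a log2 fold change of -0.25 (edgeR adjusted p = 0.505).

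**Figure D4:**
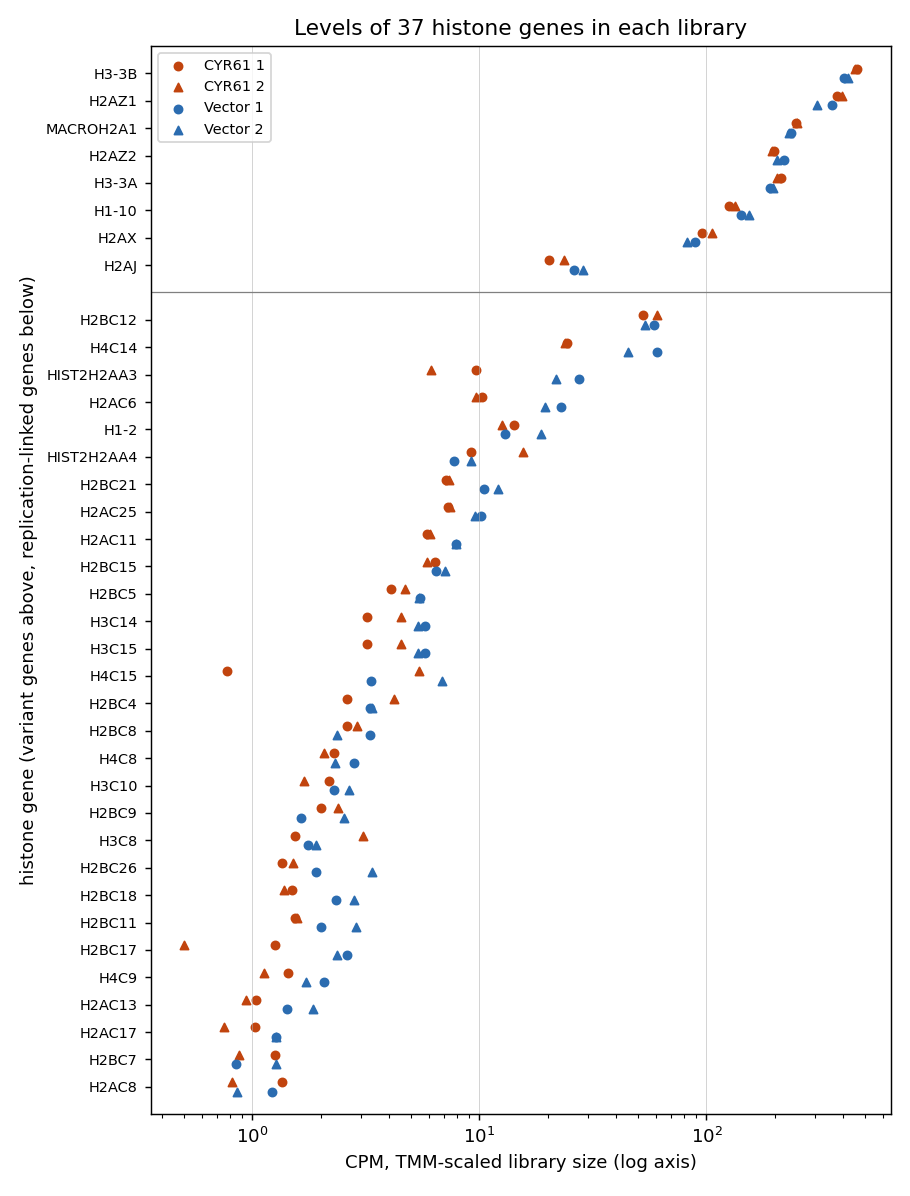
Level in CPM (horizontal log axis) of the 37 kept genes in each of the 4 libraries, variants above the line and replication-linked genes below, circles for replicate 1 and triangles for replicate 2. The median gene stood at 202 CPM among the variants and at 3.36 CPM among the replication-linked genes. The groups of H4C14, HIST2H2AA3 and H2AC6 lie apart, as do those of most kept genes. Of the 37, 22 had both CYR61 libraries below both Vector libraries, against 27.7% of all genes tested. In 6 both lay above, against 23.9% of all genes tested, and 9 overlapped.

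The ratio of the classes was also taken within H1, H2A and H3. H1-2 amounted to 11.3% and 9.41% of H1-10 in CYR61 cells, against 9.19% and 12.1% in Vector cells, and the groups overlapped. Replication-linked H2A amounted to 4.86% and 4.89% of variant H2A in CYR61 cells, against 8.64% and 8.41% in Vector cells. Replication-linked H3 amounted to 1.51% and 2.09% of H3-3A and H3-3B in CYR61 cells, against 2.63% and 2.50% in Vector cells. For H2A and H3 the groups did not overlap. H1-10, a linker variant, had 125.6 and 133.2 CPM in CYR61 cells, against 141.5 and 154.2 CPM in Vector cells, with a log2 fold change of -0.19 (edgeR adjusted p = 0.349).

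The H2A variants did not move in one direction. H2AX, which is phosphorylated around DNA breaks, had 95.5 and 105.7 CPM in CYR61 cells, against 89.2 and 81.8 CPM in Vector cells. H2AZ1, one of the genes for H2A.Z, which marks promoters, had 375.8 and 395.2 CPM in CYR61 cells, against 357.6 and 307.3 CPM in Vector cells. Both were above Vector in both CYR61 libraries without passing the test, with log2 fold changes of 0.23 (edgeR adjusted p = 0.281) for H2AX and 0.21 (edgeR adjusted p = 0.307) for H2AZ1. H2AZ2, the other H2A.Z gene, had 198.2 and 193.6 CPM in CYR61 cells, against 219.2 and 204.3 CPM in Vector cells, with a log2 fold change of -0.11 (edgeR adjusted p = 0.587). H2AJ, a variant close to canonical H2A, had 20.2 and 23.5 CPM in CYR61 cells, against 26.0 and 28.7 CPM in Vector cells, with a log2 fold change of -0.33 (edgeR adjusted p = 0.244). Both CYR61 libraries were below Vector for H2AZ2 and H2AJ. MACROH2A1, an H2A with a large extra domain that is known from silent chromatin, had 248.8 and 249.6 CPM in CYR61 cells, against 236.1 and 230.9 CPM in Vector cells. Its log2 fold change was 0.09 (edgeR adjusted p = 0.647), and antisense genes overlap it.

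With the GC trend removed, H2AX was called higher (log2 fold change 0.40, edgeR adjusted p = 0.00152) and so was MACROH2A1 (0.19, edgeR adjusted p = 0.0493). These are 2 of 8 variants, beside 18.1% of all genes called higher in that setting.

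H3-3A and H3-3B encode the same H3.3 protein, which replaces H3 at active genes. H3-3B had 459.5 and 453.0 CPM in CYR61 cells, against 403.6 and 419.0 CPM in Vector cells. H3-3A had 213.4 and 205.2 CPM in CYR61 cells, against 189.6 and 196.6 CPM in Vector cells. Both were above Vector in both CYR61 libraries, with log2 fold changes of 0.15 (edgeR adjusted p = 0.432) for H3-3B and 0.12 (edgeR adjusted p = 0.564) for H3-3A. Per kb of annotated exon, a rank that depends on the annotated length, H2AZ1 led the variants at 156 CPM per kb. Then came H1-10 at 92.0, H3-3B at 70.7, H3-3A at 64.0 and H2AX at 57.7. Below these lay H2AZ2 at 42.9, MACROH2A1 at 13.6 and H2AJ at 7.34.

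A list of 62 genes was followed, of which 54 were tested. It held genes that make, end, carry and exchange histones, and 9 histone genes outside the naming rule. Of these 9 only CENPA was tested. By edgeR 0 of the 54 were called, against 6.39% of all genes, and by DESeq2, which called 7.2% of all genes, and limma-voom also 0. At an unadjusted p under 0.05, edgeR found 5 of the 54 higher and 1 lower, beside 9.77% and 13.2% of all genes, so the share of higher genes was near the background. The median log2 fold change was 0.07. With the GC trend removed, 16 were called higher and 2 lower, beside 18.1% and 12.2% of all genes.

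Among the 20 genes that transcribe and end histone messages, the median log2 fold change was 0.09. SLBP, which binds the stem-loop, had 95.7 and 88.1 CPM in CYR61 cells, against 81.3 and 82.0 CPM in Vector cells, with a log2 fold change of 0.17 (edgeR adjusted p = 0.423). NPAT, the coactivator of histone gene transcription in S phase, had 19.9 and 15.5 CPM in CYR61 cells, against 16.1 and 21.3 CPM in Vector cells, with a log2 fold change of -0.08 (edgeR adjusted p = 0.857). SLBP was thus above Vector in both CYR61 libraries, and NPAT overlapped. CSTF2, a subunit of the 3′ cleavage complex, had 66.2 and 74.2 CPM in CYR61 cells, against 55.3 and 48.4 CPM in Vector cells, with a log2 fold change of 0.44 (edgeR adjusted p = 0.0822). None of these passed the test, while with the GC trend removed SLBP was called (edgeR adjusted p = 0.0397) and so was CSTF2 (edgeR adjusted p = 0.000834).

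E2F1, a transcription factor of S-phase entry, had 75.7 and 85.6 CPM in CYR61 cells, against 106.8 and 106.7 CPM in Vector cells, with a log2 fold change of -0.41 (edgeR adjusted p = 0.0758). It was the gene of smallest p among the 5 of the cyclin E and E2F group. Of the 22 chaperones, SUPT16H, a subunit of FACT, had 294.0 and 250.2 CPM in CYR61 cells, against 207.5 and 229.9 CPM in Vector cells, with a log2 fold change of 0.32 (edgeR adjusted p = 0.155). Of the 6 genes of H2A.Z exchange, SRCAP, its ATPase, had 188.4 and 229.8 CPM in CYR61 cells, against 163.5 and 154.9 CPM in Vector cells, with a log2 fold change of 0.39 (edgeR adjusted p = 0.0958). E2F1 was below Vector in both CYR61 libraries, and SUPT16H and SRCAP were above. CENPA, the H3 variant of centromeres, which the naming rule left out, had 22.1 and 18.3 CPM in CYR61 cells, against 13.6 and 16.1 CPM in Vector cells, with a log2 fold change of 0.44 (edgeR adjusted p = 0.159). After removal of the GC trend these 4 were called too, E2F1 lower and the others higher, at edgeR adjusted p-values of 0.0242, 0.00344, 0.000355 and 0.0155 in the order given.

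Proliferation genes did not move with the replication-linked histones in one direction. Of 13 proliferation markers tested, 2 were called higher and 0 lower, beside 1.83% and 4.56% of all genes. At an unadjusted edgeR p under 0.05, 4 were higher and 2 lower, beside 9.77% and 13.2% of all genes. Each share rests on few genes. The median log2 fold change of the 13 was 0.01. CCNA2, the cyclin of S phase and G2, averaged 121 CPM in CYR61 cells and 81.5 CPM in Vector cells (log2 fold change 0.57, edgeR adjusted p = 0.0173). MKI67, a marker of cycling cells, averaged 549 CPM in CYR61 cells and 377 CPM in Vector cells (log2 fold change 0.54, edgeR adjusted p = 0.0234). The call of CCNA2 was lost on leaving out Vector 1 (edgeR adjusted p = 0.133) or Vector 2 (0.0775), and that of MKI67 on leaving out CYR61 1 (0.0629) or Vector 1 (0.188). With the replicate number as a block neither was called, at edgeR adjusted p = 0.175 for CCNA2 and 0.165 for MKI67. The log2 fold changes with a library left out were 0.54 to 0.61 for CCNA2 and 0.44 to 0.66 for MKI67. CDT1, a licensing factor of replication, averaged 128 CPM in CYR61 cells and 175 CPM in Vector cells (log2 fold change -0.46, edgeR adjusted p = 0.0943). The part of these genes in the histone values was not tested.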

How the data were processed

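The authors deposited estimated counts per Ensembl gene and library, of which 11.2% to 12.0% were not whole. The counting program, annotation and strand use are not stated in the sources used here. Per the submitters' processing notes, TopHat2 2.1.1, Cufflinks 2.2.1 and Cuffdiff 1.3.0 were used with build hg38. Symbols were found for 20228 of the 20286 identifiers. Counts were rounded, filtered with filterByExpr and scaled by TMM, and the 12698 genes left were fitted on group with edgeR 4.0.16 (quasi-likelihood test, R 4.3.3). Log2 fold changes are CYR61 minus Vector, and SE is their size over the square root of F. Members, gene lists and tests were chosen with earlier results of these data known. A further gene that fits the names is not reported here and enters no count or sum of the members. Named were every other kept variant, every called replication-linked gene, the 5 highest per kb, the 3 uncalled of smallest p, and the called gene or that of smallest p of each pathway role, with SLBP, NPAT and CENPA. H2BC4 and the other divergent genes, H3C14 and H3C15, and the markers were named outside that rule after their values were seen. Alternatives were DESeq2 1.42.0, limma-voom 3.58.1, other scalings and filters, GC and length trends (spline of 5 df), a replicate block and each library left out. Positions and transcripts are GENCODE 29, and 50-mers were compared between its transcripts. The code was tested on simulated data.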

Additional observations from a re-analysis of the deposited data

How the results depend on the processing

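The 3 called histone genes kept direction and call under the 48 alternative values counted here. For HIST2H2AA3, summing it with its copy moved the log2 fold change from -1.62 to -0.71. The further refits of the summed pairs are not among the 48. The sum of HIST2H2AA3 and HIST2H2AA4 was not called in every one of them, as given above. Of 333 values for the 21 uncalled named genes, 279 stayed uncalled in the same direction, 46 became called and 8 reversed. The cause was not tested. Reversed were H2BC12 (-0.008 with a 5 CPM filter, -0.004 by library size alone, -0.094 to 0.12 with each library left out), H1-2 (-0.479 to 0.044 with each left out) and NPAT (0.01 with the length trend removed, -0.263 to 0.142 with each left out). The replication-linked genes called, 3, were 6 with the GC trend removed, 7 with that and the replicate block, 6 without a filter, 13 with crossed numbers as block, 1 (H2AC6) without near-identical members, and 3 to 5 with each library left out; 5 came without CYR61 1, which added H2BC17 lower and HIST2H2AA4 higher. The variants called, 0, were 2, 1 and 6 with GC removed, GC with block and crossed block. The pathway genes called, 0, were 18, 15 and 22 in those settings, 1 with the length trend, 4 without a filter and 0 to 1 with each library left out. All genes called, 811, were 3857, 3064 and 5624 in those settings, 1677 without a filter, 391 with the replicate block and 481 to 1331 with each library left out, lowest without Vector 1 and highest without CYR61 2. Whether the replicate numbers pair the libraries cannot be told from these values. Deviations from the group mean correlated at -0.377 between equal numbers. The 0.377 between crossed ones is the same value with its sign turned, because each group has 2 libraries. With the replicate block, 4 replication-linked (the 3 and H2BC17), 0 variant and 0 pathway genes were called. The crossed block, the summed pairs and their refits were chosen after seeing the data. Differences between replicates followed GC content (rho -0.683 in CYR61, 0.643 in Vector, over 12668 genes). With 2 libraries per group, a difference under the spread of 2 cultures is not detectable, and genes of few counts are limited by depth.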
